A study of Mus musculus with 11 samples.

Results

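Integrins are the receptors by which cells hold on to the extracellular matrix, and the 10 genes described here encode the integrin subunits characteristic of skin keratinocytes: Itga2, Itga3, Itga5, Itga6, Itgav, Itgb1, Itgb4, Itgb5, Itgb6 and Itgb8. They were chosen by name from knowledge of the family, with no measured value in the rule but with earlier results of these data known. The study had reported Itga5 as raised in WT wound-front keratinocytes. The genes are 10 of the 24421 listed in the count tables. All 10 were found and all 10 passed the filter on low counts. RNA was sequenced from keratinocytes of adult mice, age-matched littermates of both sexes, labelled C57BL/6 and given as C57BL/6J in the study's methods. The cells came from the margin of full-thickness punch wounds on the back a few days after wounding, or from distal unwounded back skin. The WT group carried no deletion in keratinocytes. The group labelled GRHL3 KO carried floxed Grhl3 alleles, which a Cre driven by the Krt14 promoter removes in keratinocytes and in other epithelia that have used this promoter. Cells were sorted by their surface integrin α6, the protein of Itga6 (CD49F), after cells with leukocyte, endothelial and erythroid surface proteins had been gated out. There were 2 libraries of WT unwounded, 2 of WT wounded, 1 of unwounded and 2 of wounded keratinocytes labelled GRHL3 KO. Open chromatin was profiled by ATAC-seq in the same 4 conditions, with 1 library a condition pooled from 2 mice, so the chromatin data have no replicates.

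An integrin is a pair of one α and one β subunit, and the pair sets which matrix protein is bound. In resting epidermis the α6 and β4 subunits build hemidesmosomes on the laminin of the basement membrane, while α3 and α2 with the shared β1 subunit bind laminins and collagens. At wound edges keratinocytes meet a provisional matrix rich in fibronectin and tenascin, for which the α5 subunit with β1 and the αv subunit with β5, β6 or β8 are receptors that read the peptide motif RGD; αv with β6 or β8 also releases active TGF-β from its latent form.

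Counts on genes totalled between 13497283 and 16807451 per library, and levels are given as CPM, the counts of a gene scaled to a common total of these. The most abundant basal keratinocyte marker, Krt14, stood between 12190 and 19440 CPM in all 7 libraries. The Grhl3 level was 122 and 83.2 CPM in WT unwounded, 110 and 90.0 in WT wounded, 76.2 in the unwounded library labelled GRHL3 KO and 116 and 104 in the 2 wounded ones. The wounded libraries with either label overlapped in Grhl3, and gene-level counts do not separate the floxed exons, so genotype is given here as labelled. Xist counts were 14854 in the unwounded library labelled GRHL3 KO and between 3 and 32 in the other 6 libraries. In the same library 4 Y-linked genes summed to 0 counts, against 2580 to 3589 counts in the others. This library alone looked female, so in every comparison that uses it sex cannot be told apart from group, and its labels also disagree on its replicate number. Group levels are bulk values, in which fewer cells of a type and less RNA per cell cannot be told apart.

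To compare genes with each other, CPM was divided by the length of each gene's joined exons in kilobases (CPM per kb). On this scale the mean over the 7 libraries was 161 for Itga6, 120 for Itgb4, 108 for Itgb1 and 66.4 for Itga3. It was 18.5 for Itgav, 13.6 for Itgb5, 6.55 for Itgb6, 4.61 for Itga5, 4.19 for Itga2 and 3.43 for Itgb8. The ranges of Itga6, Itgb4, Itgb1 and Itga3 overlapped from each gene to the next, as did those of Itgb5, Itgb6, Itga5, Itga2 and Itgb8. Itga3 (50.9 to 81.3 CPM per kb) stood apart from Itgav (16.1 to 21), and Itgav from Itgb5 (10.5 to 15.8). By overlap of ranges, the laminin receptor subunits and their shared partner thus made an upper tier, the αv chain a middle one, and the other 5 subunits a lower one. Itgb5 nonetheless lay above Itgb6 in every library. Their ranges met only through Itgb5 in WT unwounded replicate 2 (10.5) and Itgb6 in WT wounded replicate 1 (10.8).

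The α subunits divided the same way when each was taken as a share of the summed CPM per kb of the 5 listed α genes. Laminin-binding Itga3 and Itga6 together held 88.9% and 90.3% in WT unwounded, 87.8% and 88.7% in WT wounded, 89.1% in the unwounded library labelled GRHL3 KO and 90.5% and 89.8% in the wounded ones. Collagen-binding Itga2 held 1.22% and 1.38% in WT unwounded, 1.67% and 2.63% in WT wounded, 1.33% in the unwounded library labelled GRHL3 KO and 1.5% and 1.39% in the wounded ones. RGD-binding Itga5 and Itgav together held 9.93% and 8.28%, then 10.5% and 8.65%, then 9.59%, then 7.99% and 8.84% in the same order. Both WT wounded libraries had the highest collagen-binding shares, and the laminin-binding share spanned no more than 87.8% to 90.5% over the 7 libraries. Within the RGD-binding pair the parts moved unlike each other: the Itga5 share was 1.78% and 1.11% in WT unwounded against 2.44% and 2.81% in WT wounded, while the Itgav share was 8.16% and 7.18% against 8.07% and 5.84%. In the libraries labelled GRHL3 KO the Itga5 share was 0.996% unwounded and 1.73% and 1.40% wounded. These shares depend on the length used for each gene; with the longest transcript in place of joined exons Itga6 averaged 74.4% and Itga3 17.3%.

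**Figure D1:**
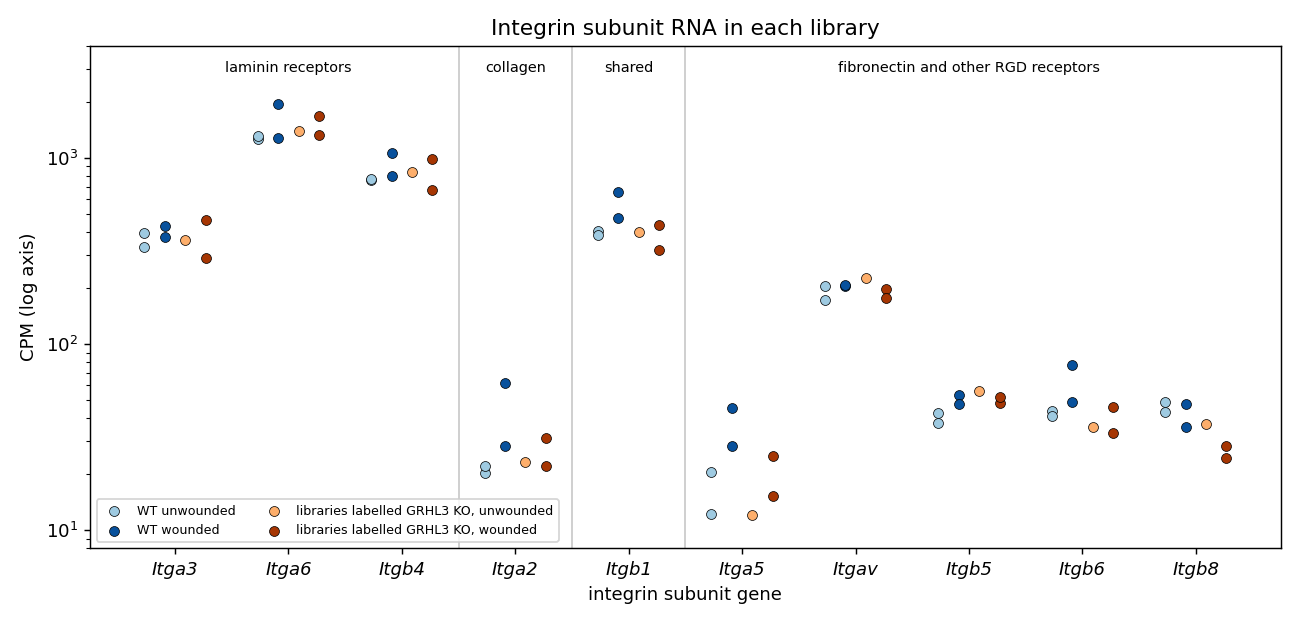
Level of each of the 10 integrin subunit genes in CPM (vertical axis, logarithmic) in each of the 7 RNA libraries, grouped by genotype label and wounding, each point being 1 library. Itga5 in WT wounded keratinocytes (28.4 and 45.6 CPM) lies above the WT unwounded points (20.6 and 12.3), while Itgav stays between 173 and 226 CPM throughout.

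The WT wounded libraries were set against the WT unwounded ones to ask how integrin RNA differs at the wound front. All 7 libraries were fitted together with edgeR's quasi-likelihood test, two-sided, over the 14045 genes that passed the filter, and a call means an unadjusted P under 0.05, the threshold of the study. By that rule 4 of the 10 subunit genes were higher in WT wounded keratinocytes, where 3.18% of all genes tested were, and 0 were lower, where 1.67% of all genes were. After Benjamini-Hochberg adjustment edgeR called 0 of the 10, against 0.0285% of all genes, and DESeq2 also called 0 adjusted and 4 unadjusted. The smallest adjusted p of a subunit gene was 0.578 in edgeR and 0.292 in DESeq2. The 2 WT groups did not overlap, wounded above unwounded, for 6 of the 10, where 15.2% of all genes tested showed this, and for 0 of the 10 the other way, where 18.3% did. The median log2 fold change of the 10 was 0.36, beside 0.00 for all genes tested. The 4 higher genes were thus a larger share than that of all genes, at a threshold that no subunit gene passed after adjustment in this fit; with no filter on low counts 2 did (smallest adjusted p 0.0122). That count rested on single libraries: it was 3 without WT unwounded replicate 1, 1 without WT unwounded replicate 2, 5 without WT wounded replicate 1, when Itga2 also passed adjustment (adjusted p = 0.0339), and 1 without WT wounded replicate 2.

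The wounded libraries labelled GRHL3 KO were set against the WT wounded ones to compare the genotypes at the wound front. Of the 10 subunit genes 5 were lower at an unadjusted P under 0.05, where 2.08% of all genes tested were, and 0 were higher, where 1.96% of all genes were. After adjustment edgeR called 0 of the 10 and 0% of all genes, while DESeq2 called 0 of the 10 adjusted and 5 unadjusted. The groups did not overlap for 5 of the 10 with the GRHL3 KO label lower, where 17.2% of all genes showed this, and for 0 of the 10 with it higher, where 13.8% did. The median log2 fold change of the 10 was −0.35, beside −0.01 for all genes. The count of lower genes was 3 without WT wounded replicate 1, 2 without WT wounded replicate 2 and 4 without the unwounded library labelled GRHL3 KO. It was 6 without wounded replicate 1 and 1 without wounded replicate 2 of that label. This comparison shares its WT wounded libraries with the one before it, so a high value in either WT wounded library enters both.

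Within the GRHL3 KO label, wounded against unwounded rests on 1 unwounded library, which the fit assumes to vary like the other groups. At an unadjusted P under 0.05 edgeR called 0 of the 10 subunit genes higher and 0 lower, where 5.28% and 4.04% of all genes were, and after adjustment 0 of the 10, where 0.947% of all genes were. DESeq2 likewise called 0 of the 10 with and without adjustment. The median log2 fold change of the 10 was 0.01, beside 0.02 for all genes. Without wounded replicate 2 of that label, Itga5 was called higher (log2 fold change 1.10), and without its wounded replicate 1 the value was 0.31 and not called, against 0.75 with all libraries.

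A call in WT and none in the GRHL3 KO label is no difference by itself, so the difference of the wound responses was tested in the same fit. At an unadjusted P under 0.05 edgeR called 0 of the 10 higher, where 3.83% of all genes were, and 0 lower, where 2.94% were, and after adjustment 0 of the 10, where 0.185% of all genes were. DESeq2 called 1 of the 10 lower unadjusted, Itgb1, and 0 adjusted. All 10 log2 differences were below 0, with a median of −0.43 beside 0.01 for all genes; all 10 share the same 7 libraries. The shared sign was lost for Itga3 without wounded replicate 2 labelled GRHL3 KO (0.20) or WT unwounded replicate 2 (0.0065), and for Itga6 without WT wounded replicate 2 (0.11). The Itgb1 value was closest to the threshold, at −0.65 (standard error 0.31, adjusted p = 0.734), and Itga2 had −0.90 (standard error 0.52, adjusted p = 0.793). Without WT wounded replicate 1 both were called lower, at −0.87 and −1.36, and without WT wounded replicate 2 neither was, at −0.37 and −0.21. Without wounded replicate 1 labelled GRHL3 KO, Itgb1 (−0.93) and Itgb4 (−0.68) were called, while without its replicate 2 they were −0.41 and −0.049 and not called.

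With genotype as a term, the 4 wounded libraries were set against the 3 unwounded ones. Itga2 and Itga5, 2 of the 10, were higher at an unadjusted P under 0.05, where 3.69% of all genes were, and 0 were lower, where 2.93% were. After adjustment edgeR called 0 of the 10 and 0.0356% of all genes, and DESeq2 called 0 adjusted and 2 unadjusted. With no filter on low counts edgeR called 4 higher, and 2 passed adjustment (smallest adjusted p 0.00243). The Itga5 log2 fold change was 1.02 (standard error 0.28, called, adjusted p = 0.261), and it was called whichever of 6 libraries was left out; the single unwounded library labelled GRHL3 KO was kept throughout. For Itga2 it was 0.74 (standard error 0.28, called, adjusted p = 0.57), and was not called without WT unwounded replicate 1 (0.62), WT unwounded replicate 2 (0.66) or WT wounded replicate 2 (0.32). The median of the 10 was 0.22, beside 0.01 for all genes. The count of higher genes was 1 without either WT unwounded replicate, 3 without WT wounded replicate 1, when Itgb8 was also called lower, and 6 without wounded replicate 2 labelled GRHL3 KO.

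**Figure D2:**
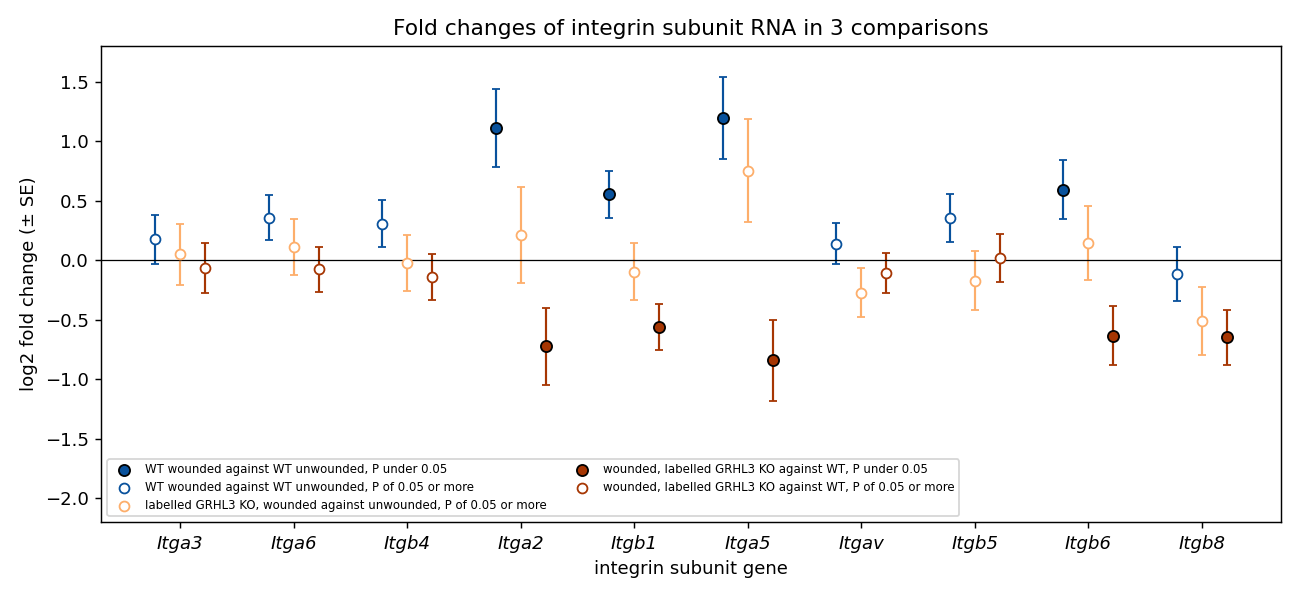
Log2 fold change of each of the 10 integrin subunit genes with its standard error, for WT wounded against WT unwounded, wounded libraries labelled GRHL3 KO against WT wounded, and wounded against unwounded within that label. Points filled with colour passed an unadjusted P under 0.05, and white points did not. Itga2 and Itga5 have the highest WT wound values (1.11 and 1.2), and Itga2, Itga5, Itgb1, Itgb6 and Itgb8 lie lowest between the wounded groups.

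The laminin receptor subunits come first because they are the most abundant. Itga6, whose α6 protein joins β4 in hemidesmosomes, was also the surface marker of the sort, so its level is that of cells chosen for its protein. Its CPM was 1261 and 1307 in WT unwounded, 1277 and 1953 in WT wounded, 1389 in the unwounded library labelled GRHL3 KO and 1674 and 1337 in the wounded ones. WT wounded replicate 2 stood above all others, and WT wounded replicate 1 lay between the 2 unwounded WT libraries. The log2 fold change in WT wounding was 0.36 (standard error 0.19, adjusted p = 0.984). It was 0.00 without WT wounded replicate 2, and 0.63 and called without WT wounded replicate 1. Itgb4 encodes the β4 subunit, whose long cytoplasmic tail links α6 to keratin filaments through plectin. Its CPM was 762 and 770 in WT unwounded, 802 and 1061 in WT wounded, 840 in the unwounded library labelled GRHL3 KO and 986 and 671 in the wounded ones. The WT groups did not overlap, and the wounded libraries labelled GRHL3 KO spread on either side of the unwounded ones. Its log2 fold change in WT wounding was 0.31 (standard error 0.20, adjusted p = 0.984), which was 0.50 and called without WT wounded replicate 1 and 0.075 without WT wounded replicate 2. Itga3 encodes α3, which joins β1 to bind laminin. Its CPM was 395 and 332 in WT unwounded, 377 and 431 in WT wounded, 364 in the unwounded library labelled GRHL3 KO and 464 and 291 in the wounded ones. Both extremes of Itga3 were the 2 wounded libraries labelled GRHL3 KO, and the 2 groups overlapped in each comparison of wounding or label made here. Between the wounded groups Itga3 and Itgb4 had log2 fold changes of −0.07 and −0.14. Without wounded replicate 1 of the GRHL3 KO label both were −0.48 and called, and without its wounded replicate 2 they were 0.26 and 0.14.

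The 2 partners of the hemidesmosome receptor were compared as a ratio. The log2 ratio of Itga6 to Itgb4 CPM was 0.73 and 0.76 in WT unwounded, 0.67 and 0.88 in WT wounded, 0.73 in the unwounded library labelled GRHL3 KO and 0.76 and 0.99 in the wounded ones. The WT groups overlapped, as did the wounded groups of the 2 labels. Wounded replicate 2 labelled GRHL3 KO lay above the unwounded libraries of either label. Wounded replicate 1 of that label (0.7636) was about level with WT unwounded replicate 2 (0.7622). The log2 ratio of Itga5 to Itga6 was −5.94 and −6.74 in WT unwounded against −5.49 and −5.42 in WT wounded, and the WT groups did not overlap. It was −6.86 in the unwounded library labelled GRHL3 KO and −6.06 and −6.45 in the wounded ones. The log2 ratio of Itga2 to Itga6 was −5.95 and −5.89 in WT unwounded, −5.50 and −4.98 in WT wounded, −5.91 in the unwounded library labelled GRHL3 KO and −5.73 and −5.92 in the wounded ones. Both WT wounded libraries thus held more collagen and fibronectin receptor RNA for each α6 RNA than any other library did. Across the 7 libraries the log2 CPM of Itga6 and Itgb4 had a Pearson r of 0.905, a description over 7 points that share depth and wounding.

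Itga2 encodes α2, which with β1 forms the keratinocyte receptor for fibrillar collagen. Its CPM was 20.4 and 22.1 in WT unwounded, 28.2 and 61.8 in WT wounded, 23.1 in the unwounded library labelled GRHL3 KO and 31.5 and 22.1 in the wounded ones. WT wounded replicate 2 stood well above the other 6 libraries, the WT groups did not overlap, and the wounded groups with either label did. The log2 fold change in WT wounding was 1.11 (standard error 0.33, called, adjusted p = 0.579). Without WT wounded replicate 2 it was 0.42 and not called. Between the wounded groups it was −0.72 (standard error 0.33, called, adjusted p = 1). That call was lost without WT wounded replicate 2 (−0.03), wounded replicate 2 labelled GRHL3 KO (−0.46) or the unwounded library of that label (−0.72). Without WT wounded replicate 1 the value was −1.18 and called.

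Itga5 encodes α5, which with β1 is the main fibronectin receptor and is known from leading-edge keratinocytes. Its CPM was 20.6 and 12.3 in WT unwounded, 28.4 and 45.6 in WT wounded, 12.0 in the unwounded library labelled GRHL3 KO and 25.2 and 15.3 in the wounded ones. Each wounded group lay above the unwounded group of its own label, and both WT wounded libraries lay above both wounded ones labelled GRHL3 KO. The log2 fold change in WT wounding was 1.2 (standard error 0.34, called, adjusted p = 0.578), the highest of the 10. It was not called without WT wounded replicate 2 (0.80) or WT unwounded replicate 2 (0.86). Within the GRHL3 KO label it was 0.75 (standard error 0.43, adjusted p = 0.684), and the difference between the responses was −0.44 (standard error 0.55, adjusted p = 0.942). That difference ran from −0.89 without wounded replicate 1 labelled GRHL3 KO to −0.042 without WT wounded replicate 2. In wounded skin the genotype labels differed by a log2 fold change of −0.84 (standard error 0.34, called, adjusted p = 1). The call was lost without WT wounded replicate 2 (−0.44) or wounded replicate 2 labelled GRHL3 KO (−0.50), and the value was −1.28 without wounded replicate 1 labelled GRHL3 KO. The log2 ratio of Itga5 to its partner Itgb1 averaged −4.63 ± 0.48 (SD, n = 2) in WT unwounded and −3.96 ± 0.15 (SD, n = 2) in WT wounded. It was −5.07 in the unwounded library labelled GRHL3 KO and averaged −4.25 ± 0.19 (SD, n = 2) in the wounded ones.

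Itgb1 encodes β1, the partner shared by α2, α3 and α5. Its CPM was 403 and 384 in WT unwounded, 474 and 659 in WT wounded, 402 in the unwounded library labelled GRHL3 KO and 435 and 319 in the wounded ones. Both WT wounded libraries stood above the other 5, whose order did not follow wounding. The log2 fold change in WT wounding was 0.55 (standard error 0.20, called, adjusted p = 0.829), a call lost without WT wounded replicate 2 (0.28) or WT unwounded replicate 2 (0.51). From WT wounded to the wounded GRHL3 KO label it was −0.56 (standard error 0.20, called, adjusted p = 1). This call was lost without WT wounded replicate 2 (−0.29) or wounded replicate 2 labelled GRHL3 KO (−0.32). Over the 7 libraries the log2 CPM of Itgb1 had a Pearson r of 0.915 with Itga2 and 0.854 with Itga5, again a description over points that share WT wounded replicate 2.

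Itgav encodes αv, the common partner of β5, β6 and β8 here. Its CPM ran from 173 to 226, both ends in unwounded libraries, and its log2 fold changes were 0.14 in WT wounding and −0.11 between the wounded groups, each with an adjusted p of 1. The first was 0.28 without WT unwounded replicate 1 and 0.010 without WT unwounded replicate 2, and the second −0.22 and 0.0083 without wounded replicate 1 and 2 labelled GRHL3 KO. Itgav was therefore the steadiest of the 10 genes in level, and its standard error was also the smallest (0.17 in both comparisons). Itgb5 encodes β5, a vitronectin receptor chain with αv. Its CPM was 42.8 and 37.5 in WT unwounded, 53.0 and 47.7 in WT wounded, 56.2 in the unwounded library labelled GRHL3 KO and 48.5 and 52.0 in the wounded ones. The WT groups did not overlap, but the unwounded library labelled GRHL3 KO had the highest level of all. The log2 fold change in WT wounding was 0.35 (standard error 0.20, adjusted p = 0.984), and between the wounded groups 0.02 (adjusted p = 1).

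Itgb6 encodes β6, which with αv is confined to epithelia and is known from wounds, where it binds fibronectin and tenascin and activates TGF-β. Its CPM was 43.7 and 41.1 in WT unwounded, 77.0 and 48.9 in WT wounded, 35.9 in the unwounded library labelled GRHL3 KO and 46.0 and 33.5 in the wounded ones. Unlike Itga2, Itga5 and Itgb1, the highest library was WT wounded replicate 1, and the WT groups did not overlap. The log2 fold change in WT wounding was 0.59 (standard error 0.25, called, adjusted p = 0.952). It was not called without WT wounded replicate 1 (0.23), WT unwounded replicate 1 (0.65) or WT unwounded replicate 2 (0.54). Between the wounded groups it was −0.63 (standard error 0.25, called, adjusted p = 1), a call lost without WT wounded replicate 1 (−0.27) or wounded replicate 2 labelled GRHL3 KO (−0.39).

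Itgb8 encodes β8, the other chain that with αv activates TGF-β. Its CPM was 49.1 and 43.0 in WT unwounded, 47.7 and 35.9 in WT wounded, 37.1 in the unwounded library labelled GRHL3 KO and 24.4 and 28.2 in the wounded ones. The 2 wounded libraries labelled GRHL3 KO were the lowest of the 7 and overlapped no other group, while the WT groups overlapped. Itgb8 was the only one of the 10 with a WT wound value below 0, at −0.12 (adjusted p = 1), which was −0.33 without WT wounded replicate 1 and 0.058 without WT wounded replicate 2. Against WT wounded, the wounded GRHL3 KO label gave −0.65 (standard error 0.23, called, adjusted p = 1). The call was lost without WT wounded replicate 1 (−0.43) or wounded replicate 1 labelled GRHL3 KO (−0.57) and held without any other library. Per αv RNA the 3 β chains did not share 1 order of groups. The log2 ratio of Itgb8 to Itgav averaged −2.04 in WT unwounded, −2.31 in WT wounded, −2.60 in the unwounded library labelled GRHL3 KO and −2.84 in the wounded ones. For Itgb6 to Itgav these values were −2.16, −1.74, −2.65 and −2.26, and for Itgb5 to Itgav −2.24, −2.03, −2.01 and −1.90. The third value of each is 1 library. The WT wounded Itgb6 ratios were −1.41 and −2.08, and the latter was about level with WT unwounded replicate 2 (−2.07).

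By receptor class, the 3 laminin receptor subunits had a median log2 fold change of 0.31 in WT wounding with 0 of 3 called, the collagen receptor subunit Itga2 had 1.11 and was called, and the 5 fibronectin and RGD receptor subunits had a median of 0.35 with 2 of 5 called. Between the wounded groups the medians were −0.08, −0.72 and −0.63, with 0 of 3 laminin, 1 of 1 collagen and 3 of 5 RGD subunits called lower. The shared Itgb1 was called in both. Of all genes tested 3.18% were higher in WT wounding and 2.08% lower between the wounded groups. Each subunit call in these 2 comparisons was lost with at least 1 library left out, as given above. The classes were compared by these counts and medians alone, and a difference between classes was not tested.

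Markers of other cells and of keratinocyte states moved in the same comparisons, and their part in the integrin values was not tested. Of all genes tested 3.18% were higher and 1.67% lower in WT wounding, and 1.96% higher and 2.08% lower between the wounded groups. In both genotypes together 3.69% were higher and 2.93% lower. The 12 endothelial markers, of which Vwf was the most abundant, summed to 4.39 and 6.72 CPM in WT unwounded, 34.8 and 22.4 in WT wounded, 0.889 in the unwounded library labelled GRHL3 KO and 16.4 and 20.6 in the wounded ones. The leukocyte markers (10 of 11 found, Cd74 the most abundant, Cd3e and Fcer1g at 0 in all libraries) summed to 9.10 and 17.1, then 17.1 and 39.8, then 11.9, then 19.5 and 25.0 CPM. The 12 fibroblast and mural markers, led by Cspg4, summed to 160 and 138, then 163 and 134, then 166, then 99.9 and 109 CPM. Cspg4 made up most of that sum, and of the 9 genes tested 2 were called higher in WT wounding (median log2 fold change 1.17), 5 higher and 1 lower in both genotypes together, and 2 lower in the wounded GRHL3 KO label than in WT wounded. Of the 11 endothelial genes tested 4 were higher in WT wounding (median 2.63), 6 higher in both genotypes together and 1 lower between the wounded groups, and of the 6 leukocyte genes tested 3 were higher in WT wounding and 0 were called between the wounded groups. The 6 melanocyte markers, led by Kit, summed to between 3.75 and 12.7 CPM. Of the 5 tested 2 were higher in WT wounding and 0 were called between the wounded groups. Endothelial RNA was higher in wounded libraries of both labels. The basal keratinocyte markers summed to between 32560 and 44650 CPM. The least abundant subunits lay on the scale of the endothelial and leukocyte sums, with Itga5 at 12.0 to 45.6 CPM and Itga2 at 20.4 to 61.8 CPM. How much of their RNA came from other cells was not tested.

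Among keratinocyte states, the 8 suprabasal markers, led by Krt1, summed to 6451 and 7122 CPM in WT unwounded, 3798 and 5511 in WT wounded, 9641 in the unwounded library labelled GRHL3 KO and 6876 and 8541 in the wounded ones. Both WT wounded libraries were the lowest, and 4 of the 8 suprabasal genes were called lower in WT wounding and 5 of 8 higher in the wounded GRHL3 KO label than in WT wounded. The 6 hair follicle markers, led by Krt15, summed to 5751 and 5105, then 4485 and 3605, then 6659, then 3638 and 4495 CPM, with 4 of 6 lower in WT wounding and 0 of 6 called between the wounded groups. The wound keratins Krt6a, Krt6b, Krt16 and Krt17, led by Krt16, summed to 4448 and 5557, then 6495 and 9644, then 2611, then 7000 and 4834 CPM. Of these 4 genes 3 were called higher in WT wounding, and 1 was called lower in the wounded GRHL3 KO label than in WT wounded. The 5 basal markers, led by Krt14, summed to 35600 and 39830, then 32560 and 44650, then 41480, then 43710 and 38040 CPM. Of these 0 were called in WT wounding and 0 between the wounded groups. WT wounded replicate 2, the library with the highest Itga2, Itga5, Itga6, Itgb1 and Itgb4 levels, also had the highest sums of wound keratins and of basal markers. The lowest basal sum was in WT wounded replicate 1.

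Of the 17 other integrin subunit genes listed, 13 passed the filter, and Itgad, Itgal, Itgax and Itgb2l were listed at 0 in all 7 libraries. In WT wounding 1 of the 13 was higher and 0 lower, where 3.18% and 1.67% of all genes tested were. Between the wounded groups 0 were higher and 1 lower, where 1.96% and 2.08% were. Itga7, which encodes a laminin-binding α chain known best from muscle, was the most abundant of them, with a CPM of 13.7 and 25.9 in WT unwounded, 12.1 and 17.5 in WT wounded, 2.52 in the unwounded library labelled GRHL3 KO and 25.3 and 13.7 in the wounded ones. Only the single unwounded library of that label stood apart, and the log2 fold change against it was 2.95 (standard error 0.53, adjusted p = 0.0235), which did not pass adjustment without wounded replicate 1 of that label. Itga1, a collagen-binding α chain, had 2.32 and 0.892 CPM in WT unwounded against 6.07 and 4.41 in WT wounded, a log2 fold change of 1.72 (standard error 0.66, called, adjusted p = 0.895). That call was lost without WT unwounded replicate 2 (1.18) or WT wounded replicate 1 (1.48). Itga2b, the α chain of the platelet fibrinogen receptor, was called within the GRHL3 KO label (log2 fold change 1.97, standard error 0.66, adjusted p = 0.3), with 1.70 CPM unwounded and 4.53 and 9.03 wounded, but not without its wounded replicate 2 (1.44). Itga8, the α chain of an RGD receptor of mesenchyme, had 52 and 5 counts in WT wounded and 0 in both wounded libraries labelled GRHL3 KO, called lower with an adjusted p of 1. This call was lost without WT wounded replicate 1 or either wounded library labelled GRHL3 KO, and no fold is given against a group at 0.

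The ligands were counted in the same comparisons. Of all genes tested 3.18% were higher and 1.67% lower in WT wounding, and 1.96% higher and 2.08% lower between the wounded groups. The counts of each list below stand beside these shares. Of 11 laminin chain genes 5 were higher and 0 lower in WT wounding (median log2 fold change 0.52), and between the wounded groups 1 was higher and 3 lower (median −0.12). Lama3, an α chain of epidermal laminin, had 361 and 355 CPM in WT unwounded against 516 and 1122 in WT wounded, a log2 fold change of 1.22 (standard error 0.26, called, adjusted p = 0.169), which was 0.54, still called, without WT wounded replicate 2. Lamb1 differed between the wounded groups by −1.12 (standard error 0.24, called, adjusted p = 0.783), from 73.3 and 50 CPM in WT to 24.9 and 30.9 under the GRHL3 KO label, and no single library decided it.

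Of 13 collagen genes 2 were higher and 0 lower in WT wounding (median 0.21), and 0 higher and 3 lower between the wounded groups (median −0.12). Col17a1, the transmembrane collagen of the hemidesmosome, was the most abundant at 4740 to 7123 CPM. Col7a1, of the anchoring fibrils, had 357 and 342 CPM in WT unwounded against 402 and 634 in WT wounded (log2 fold change 0.59, standard error 0.20, called, adjusted p = 0.761). That call was lost without WT wounded replicate 2 (0.21) or WT unwounded replicate 2 (0.55). Of the 3 lower between the wounded groups, 2 were followed with WT wounded replicate 1 left out: Col5a2 was −1.09 with it and −0.12 without it, and Col4a4 −1.37 and −0.49, called with it and not without. Without wounded replicate 2 labelled GRHL3 KO neither was called (−1.11 and −1.09), nor was Col5a2 without wounded replicate 1 (−1.06), and Col5a2 was −1.66 without WT wounded replicate 2.

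Of 13 genes listed for fibronectin, tenascin, the TGF-β forms and other RGD ligands 12 passed the filter, and Vtn, vitronectin, was listed at 0 in all libraries. In WT wounding 3 of the 12 were higher and 0 lower (median 0.31), and between the wounded groups 0 were higher and 2 lower (median −0.14). Thbs1 was the most abundant, with 3854 and 3563 CPM in WT unwounded against 5612 and 4489 in WT wounded (log2 fold change 0.47, standard error 0.14, called, adjusted p = 0.579). It was not called without WT unwounded replicate 2 (0.40) or WT wounded replicate 1 (0.30). Tgfb2, listed with the other TGF-β forms although its latent peptide lacks the RGD motif, was lower between the wounded groups, from 17.7 and 15.8 CPM in WT to 8.54 and 4.62 (−1.31, standard error 0.35, adjusted p = 1), called whichever library was left out. Tnc, encoding the tenascin of wound beds, had 317 and 488 CPM in WT wounded against 287 and 156 under the GRHL3 KO label (−0.83, standard error 0.31, called, adjusted p = 1). That call was lost without WT wounded replicate 2 (−0.47) or wounded replicate 2 of that label (−0.43) and by DESeq2, and the value was −1.37 without its wounded replicate 1. Against the single unwounded library of their own label, Tnc was higher in the wounded ones (2.08, standard error 0.38, adjusted p = 0.0311) and Tgfb2 lower (−1.90, standard error 0.42, adjusted p = 0.0373), and for these 2 values libraries were not left out in turn. Tnc and Itgb6, a ligand and its receptor chain, were thus both called lower under the wounded GRHL3 KO label.

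Of 6 hemidesmosome and tetraspanin partners 0 were called in WT wounding by edgeR at an unadjusted P under 0.05, and 1 was higher between the wounded groups. Plec, encoding the plectin that ties β4 to keratin, was the most abundant, at 4051 to 4957 CPM with a log2 fold change of 0.15 (adjusted p = 0.998) in WT wounding. Cd9, a tetraspanin partner, was the 1 called, at 396 and 355 CPM in WT wounded and 452 and 519 under the GRHL3 KO label (0.39, standard error 0.16, adjusted p = 1), and the call was lost without WT wounded replicate 2 or wounded replicate 2 of that label (0.33 each). Of 26 activation and adaptor genes tested (27 listed), 5 were higher and 1 lower in WT wounding (median 0.18), and 0 higher and 7 lower between the wounded groups (median −0.28). Flna, a filamin that binds β tails, had 674 and 722 CPM in WT unwounded, 998 and 998 in WT wounded, 482 in the unwounded library labelled GRHL3 KO and 787 and 579 in the wounded ones. Its log2 fold change was 0.54 (standard error 0.17, called, adjusted p = 0.696) in WT wounding and −0.52 (standard error 0.17, called, adjusted p = 1) between the wounded groups. The latter was not called without wounded replicate 2 labelled GRHL3 KO (−0.28) and was −0.79 without its replicate 1. Nedd9, a focal adhesion scaffold, was −0.88 (standard error 0.23, called, adjusted p = 1), and −0.48 and not called without WT wounded replicate 1. Parva, a partner of integrin-linked kinase, was −0.65 (standard error 0.21, called, adjusted p = 1), and −0.47 and not called without wounded replicate 2 labelled GRHL3 KO. Between the wounded groups every call in the integrin and adaptor lists was thus toward a lower level under the GRHL3 KO label. These were 5 of 10 and 7 of 26, where 2.08% of all genes tested were lower and 1.96% higher. None passed adjustment, and the count of 5 changed with single libraries left out, as given above.

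The genes whose log2 CPM followed 3 of the subunits most closely over the 7 libraries were sought among 8886 genes, as a description. For Itga2 they were Lama3 (Pearson r 0.974), Homer3 (0.970) and Soga1 (0.961). For Itga5 they were Nrg1 (0.955), Gbp2 (0.955) and Tmsb10 (0.953). For Itga6 they were Ube2o (0.985), Psmd10 (0.957) and Ints3 (0.956). Lama3 reached its highest level, 1122 CPM, in WT wounded replicate 2, the library in which Itga2 was also highest, and Nrg1 had 15.3 and 20.4 CPM in WT wounded against 3.11 to 10.3 elsewhere.

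Open chromatin was read from the deposited broad peaks, which carry a fold enrichment over the local background, by asking which peaks lay in a subunit gene or within 5 kb of it (mm10). The lists held 10769 peaks for WT unwounded, 36872 for WT wounded, 29364 for the unwounded and 22474 for the wounded condition labelled GRHL3 KO. In them 14, 40, 37 and 26 peaks lay at the 10 genes, or 0.130%, 0.108%, 0.126% and 0.116% of each list. The exact (Clopper-Pearson) 95% intervals, which cover counting error only, were 0.0711% to 0.218%, 0.0775% to 0.148%, 0.0887% to 0.174% and 0.0756% to 0.169%. The intervals all overlapped. With so few peaks and 1 pooled library a condition, this does not decide whether the number of integrin peaks followed the length of the list. In the WT unwounded list 7 of the 10 genes had a peak, where 50.7% of the 13508 tested genes with 1 annotated place did, and in the WT wounded list 9 of the 10, where 84.6% did. In the unwounded list labelled GRHL3 KO 9 of the 10 had a peak, where 81.0% of genes did, and in the wounded one 9 of the 10, where 68.8% did. A WT wounded peak that overlapped no WT unwounded peak was found at 9 of the 10, where 59.9% of genes had one. The 10 genes are long, with a median of 81.7 kb against 23.5 kb for all those genes, and length was not adjusted for.

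Merged over the 4 lists, the peaks made 48 regions. Itgb6 (chr2:60598292-60722643, minus strand) had 12, with 6, 10, 10 and 5 peaks in WT unwounded, WT wounded, and unwounded and wounded GRHL3 KO label. Itga5 (chr15:103344286-103366763, minus strand) had 6 regions and 0, 4, 4 and 2 peaks, and Itga6 (chr2:71745616-71858416, plus strand) had 5 regions and 0, 3, 5 and 2. Itgb5 had 6 regions with 1, 5, 4 and 4 peaks, Itgav 5 with 1, 4, 4 and 3, and Itgb8 5 with 2, 5, 3 and 4. Itga2 had 4 with 1, 4, 3 and 2, Itgb1 3 with 2, 3, 2 and 3, and Itga3 2 with 1, 2, 2 and 1. Itgb4 (chr11:115974709-116008412, plus strand), the second most abundant of the 10 per kb, had no listed peak in any condition. The fibronectin receptor chain Itga5 and the sort marker Itga6 were the genes with peaks elsewhere and none in WT unwounded. When each list was cut to the 10769 peaks with the smallest p, the counts at the 10 genes were 14, 9, 13 and 9, with 0 at Itga5 in every list and 1 at Itga6, in the unwounded GRHL3 KO label. The absence from the WT unwounded list was thus not particular to it once lists were of equal length.

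All 14 WT unwounded peaks at the 10 genes were overlapped by a WT wounded peak (100%, where 97.0% of the whole list was), and 14 of the 40 WT wounded peaks by a WT unwounded one (35.0%, where 28.2% of the whole list was). Of the 40 WT wounded peaks 23 (57.5%) were overlapped in the wounded GRHL3 KO label, where 54.7% of the whole list was, and 23 of the 26 peaks of that label (88.5%) in WT wounded, where 90.3% was. Over all pairs of lists the largest gaps were the WT unwounded peaks overlapped in the wounded GRHL3 KO label (78.6%, where 90.0% of the whole list was) and the WT wounded peaks overlapped in its unwounded list (77.5%, where 67.2% was). Start sites of Itgav, Itgb1 and Itgb8 were covered in all 4 lists, with fold enrichments of 3.80 to 4.14, 3.76 to 4.83 and 4.45 to 4.93. The integrin peak with the highest fold enrichment was in an intron of Itgb5 (chr16:33871954-33872475), with a fold enrichment of 6.56 in the wounded GRHL3 KO label, 4.94 in its unwounded list, 4.88 in WT wounded and none in WT unwounded. An Itgb6 intron region (chr2:60688906-60689502) was listed in all 4 conditions at 5.10 in WT unwounded, 5.47 in WT wounded, 6.37 in the unwounded and 6.22 in the wounded GRHL3 KO label. An Itgb1 intron region (chr8:128703552-128704025) stood at 4.30, 5.76, 4.99 and 4.8 in the same order. An Itga2 region (chr13:114933523-114933974) lay 1423 bases upstream of the start and stood at 4.19, 4.49, 3.88 and 3.84. With 1 pooled library a condition, none of these differences was tested.

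**Figure D3:**
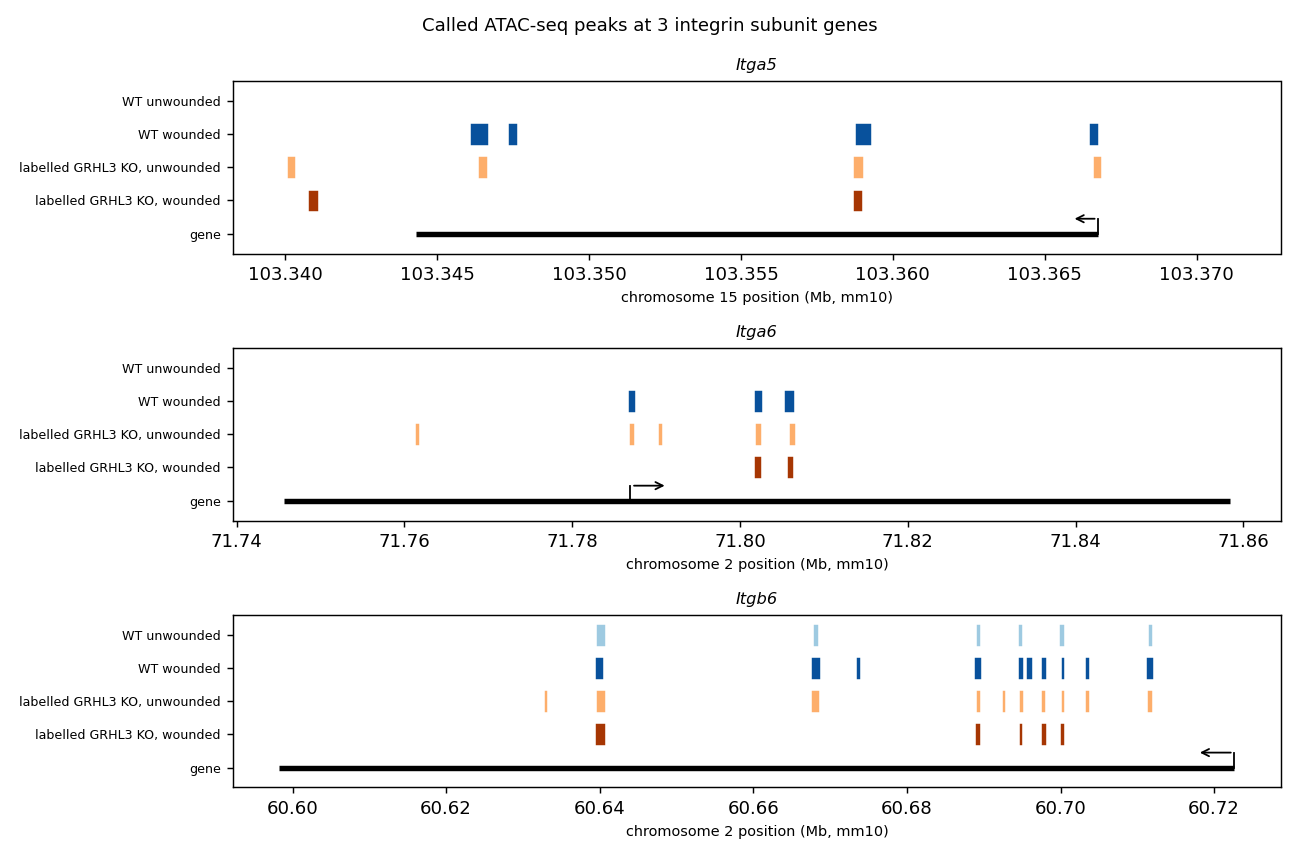
Maps of integrin subunit genes (horizontal axis, position in Mb along the chromosome, mm10) with the broad peaks listed in each of the 4 ATAC-seq conditions drawn as blocks. At Itga5 the WT unwounded track is empty beside 4 WT wounded peaks, and at Itgb6 peaks occur in all 4 tracks; the WT unwounded list is the shortest of the lists (10769 peaks).

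Regions were searched on both strands for words bound by grainyhead-like factors (AACCGGTT, AACCAGTT, AACAGGTT and AACAAGTT and their complements) and by AP-1 (TGANTCA), within 300 bases at the centre of each merged region. A grainyhead-like word lay in 1 of the 48 integrin regions (2.08%) and in 4.71% of all 42950 regions, and an AP-1 word in 14 of the 48 (29.2%) and in 27.6% of all. Neither share set the integrin regions apart from the rest. The stretches below, of 150 bases each and on the strand of the gene, show what these regions hold; they were chosen after the values were seen, 1 for each gene on which the comparisons turn, with Itga6 for its grainyhead-like word. Capitals mark every such word in the stretch; those at Itgb1 and Itgb6 and 1 of the 2 at Itga5 lie outside the central 300 bases and are not in the counts above. The Itga2 stretch (chr13:114933737-114933886, minus strand) is upstream of the start in the region listed in all 4 conditions, and the Itga5 stretch (chr15:103358740-103358889, minus strand) holds 2 AP-1 words outside the exons in a region listed in the 3 conditions other than WT unwounded. The Itga6 stretch (chr2:71805733-71805882, plus strand) is intronic and lies outside the peaks of both unwounded lists, and the Itgb1 stretch (chr8:128704513-128704662, plus strand) and the Itgb8 stretch (chr12:119230652-119230801, minus strand) are intronic and lie within a WT wounded peak. The wounded GRHL3 KO peak of the same merged region does not reach the Itgb1 stretch, and at Itgb8 it ends before both words. The Itgb6 stretch (chr2:60639515-60639664, minus strand) is intronic and at the edge of a region listed in all 4 conditions, with its word outside the WT unwounded peak. A word is a description of the sequence and not evidence of binding.
Itga2: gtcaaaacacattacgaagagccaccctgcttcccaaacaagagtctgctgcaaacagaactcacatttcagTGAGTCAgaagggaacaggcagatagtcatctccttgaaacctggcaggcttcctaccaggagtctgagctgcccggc
Itga5: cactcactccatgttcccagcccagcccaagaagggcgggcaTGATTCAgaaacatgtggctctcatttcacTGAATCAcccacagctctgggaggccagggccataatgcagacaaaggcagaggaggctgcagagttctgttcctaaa
Itga6: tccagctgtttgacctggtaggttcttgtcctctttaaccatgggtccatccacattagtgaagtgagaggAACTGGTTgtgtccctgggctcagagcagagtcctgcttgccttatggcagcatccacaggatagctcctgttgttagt
Itgb1: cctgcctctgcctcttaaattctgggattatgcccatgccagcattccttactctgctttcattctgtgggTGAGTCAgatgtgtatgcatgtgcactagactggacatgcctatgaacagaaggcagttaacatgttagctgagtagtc
Itgb6: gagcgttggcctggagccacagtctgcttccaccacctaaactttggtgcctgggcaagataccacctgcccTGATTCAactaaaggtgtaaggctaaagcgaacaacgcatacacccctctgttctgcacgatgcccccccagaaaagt
Itgb8: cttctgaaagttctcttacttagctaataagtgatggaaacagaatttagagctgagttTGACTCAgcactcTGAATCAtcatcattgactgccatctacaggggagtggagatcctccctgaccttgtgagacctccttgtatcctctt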

How the data were processed

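The 10 genes and the lists of related genes and markers were chosen with earlier results of these data known. Counts per gene symbol were used as deposited, after the rows that tally reads not assigned to a gene were left out. The study's methods name kallisto and mm10, and which step made the counts is not known. Libraries were normalized by TMM, filtered with filterByExpr and fitted together (edgeR 4.0.16, quasi-likelihood test, two-sided, Benjamini-Hochberg over 14045 genes). DESeq2 1.42.0 was the second tool. Exon and gene coordinates came from GENCODE vM21. The fold enrichment of each peak over local background, its −log10 p and −log10 q, and its score (10 times −log10 q, not used here) were made by the authors with MACS2 after alignment to mm10 with bowtie2, without a control library by the file names, and were used as deposited. An overlap of at least 1 base counted as shared. Genes named beside the 10 were, in each list, the most abundant and those with an unadjusted P under 0.05 in either main comparison, at most the 4 with the smallest P, any other integrin subunit with such a P in any comparison, Grhl3, and for Itga2, Itga5 and Itga6 the 3 genes with the highest correlation of log2 CPM (prior count 2, mean log2 CPM of at least 3). Not every gene so chosen is named in the text, while counts and medians include all of them. R 4.3.3 and Python 3.11.15 were used.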

Additional observations from a re-analysis of the deposited data

Results flagged for a closer look

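Of 61 named genes, the sex-linked Xist left aside, tested for a difference between the wound responses under the 2 genotype labels, 16 had an unadjusted P under 0.05 in edgeR's quasi-likelihood test, and none of the 10 integrin subunit genes was among them. Of all genes 3.83% were higher and 2.94% lower by this rule, but most of the named genes were chosen by calls in comparisons that share libraries with this one, so the count of 16 cannot be read against these shares. None of the 16 passed adjustment, and the GRHL3 KO arm rests on 1 unwounded library that alone looked female. Among them the response was higher under the GRHL3 KO label for Itga7 (log2 difference 3.34, adjusted p = 0.0643), Krt6b (log2 difference 4.69, adjusted p = 0.228), Vwf (adjusted p = 0.374, with no exact difference given because its level was 0.0741 CPM in the unwounded library of that label), Dsc1 (log2 difference 0.87, adjusted p = 0.448) and Tnc (log2 difference 1.44, adjusted p = 0.513). It was lower for Tgfb2 (log2 difference −2.23, adjusted p = 0.156), Thbs1 (log2 difference −0.81, adjusted p = 0.241), Col5a2 (log2 difference −2.12, adjusted p = 0.315), Itga1 (log2 difference −3.18, adjusted p = 0.434), Krt15 (log2 difference −0.60, adjusted p = 0.509), Cspg4 (log2 difference −0.90, adjusted p = 0.559), Itga8 (adjusted p = 0.63), Col17a1 (log2 difference −0.53, adjusted p = 0.65), Lama1 (log2 difference −1.01, adjusted p = 0.665) and Tns4 (log2 difference −0.62, adjusted p = 0.699).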

How the results depend on the processing

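Across settings that kept all libraries, 317 of 330 values of the 10 subunit genes kept their direction and their side of an unadjusted P of 0.05, and with 1 library left out 262 of 320 did. With 2 libraries or 1 in a group, no subunit gene passed adjustment in the reported fit, and 1 pooled library a condition allows no test of chromatin. Where leaving out a library leaves 1 in a group, that library is assumed to vary like the other groups. The cause of a change was not tested.

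The count of subunit genes called higher was, with no filter, 5 in WT wounding, 1 within the GRHL3 KO label and 4 in both genotypes together. The count lower for the difference of responses was 2 with no filter and 1 with DESeq2. The count lower between the wounded groups fell from 5 to 4 with at least 10 counts in every library, with only the libraries compared and with the replicate block. With the replicate block the count lower for the difference of responses was 1. The Itga3 log2 fold change, KO wounded against KO unwounded, was −0.11 with this block, and the Itgb6 log2 fold change, KO wounded against KO unwounded, was −0.093; replicate numbers do not establish pairs of animals. With no filter 2 of the 10 passed adjustment in WT wounding (smallest adjusted p 0.0122) and 2 in both genotypes together (0.00243). Over all genes in WT wounding, 1117 passed an unadjusted P under 0.05 by edgeR's likelihood ratio test against 680 in the reported fit, and 96 passed adjustment with no filter and 24 by DESeq2 against 4.

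With 1 library left out, the count higher ranged from 1 to 5 in WT wounding, from 0 to 1 within the GRHL3 KO label and from 1 to 6 in both genotypes. The count lower ranged from 1 to 6 between the wounded groups, from 0 to 2 for the difference of responses and from 0 to 1 in both genotypes. These log2 fold changes took both signs. In WT wounding Itgb8 ranged from −0.33 to 0.058. Between the wounded groups Itga3 ranged from −0.48 to 0.26, Itga6 from −0.35 to 0.28, Itgb4 from −0.48 to 0.14, Itgb5 from −0.041 to 0.090, Itgav from −0.22 to 0.0083 and Lama3 from −1.07 to 0.072. For the difference of responses Itga3 ranged from −0.55 to 0.20 and Itga6 from −0.52 to 0.11. Within the GRHL3 KO label Itga2 ranged from −0.11 to 0.47, Itga3 from −0.37 to 0.38, Itga6 from −0.10 to 0.30, Itgb6 from −0.14 to 0.39, Itgb1 from −0.38 to 0.14 and Itgb4 from −0.37 to 0.26. In both genotypes Itga3 ranged from −0.0018 to 0.24 and Itgav from −0.13 to 0.041.

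By the longest transcript the mean α shares were 0.896% for Itga2, 17.3% for Itga3, 1.10% for Itga5 and 74.4% for Itga6. Without length they were 18.2% for Itga3, 1.06% for Itga5, 69.7% for Itga6 and 9.67% for Itgav. At a fold enrichment of at least 4, the peaks at the 10 genes numbered 5, 21, 18 and 14 in the 4 lists, with 5 of the WT wounded ones shared with WT unwounded. With lists of equal length they numbered 9 in WT wounded, 13 in the unwounded and 9 in the wounded GRHL3 KO label, 5 of the genes had a WT wounded peak, and 8 peaks were shared.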
